A study of Drosophila melanogaster with 4 samples.

Results

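Adult muscle precursors are the myoblasts that lie against the notum side of the wing imaginal disc and later build the flight muscles. The genes described here are 10 with known roles in these cells or in muscle formation: twi, htl, stumps, Him, zfh1, how, Mef2, kirre, mbc and if. The list was matched by symbol to a RefSeq gene table on the dm6 assembly, where all 10 were found among 13922 protein-coding genes on the 6 main chromosome arms. Each was examined over its gene span with 10 kb on either side, its window.

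The data are anti-GFP CUT&RUN peak lists, an assay in which a nuclease held by the antibody cuts out the DNA at bound sites. The 2 genotypes were Osa-GFP, in which the SWI/SNF subunit Osa carries GFP, and yw, the control genotype, with 2 libraries each. All came from wing discs of female larvae at the wandering stage, raised at 25 °C, with 20 to 22 discs per library. How the tagged allele was made is not given in the labels, nor whether replicates were independent crosses, so replicate spread may be technical.

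In the developing muscle lineage Twist keeps precursors undifferentiated together with Him and the repressor Zfh1, while Mef2 switches on the genes of differentiated muscle. The FGF receptor Heartless (htl) and its adaptor Stumps carry the growth signal from the epithelium beneath. At fusion, the immunoglobulin protein Kirre marks founder cells and acts through Myoblast city (mbc), a Rac activator, and the integrin subunit Inflated (if) later anchors muscle to tendon. Osa defines one class of SWI/SNF remodeler, which moves nucleosomes at regulatory DNA.

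Peaks of the 4 lists that overlapped by 1 bp or more were merged into regions. Osa-GFP-specific regions are those that the 2 Osa-GFP libraries agreed on with neither control present. Shared regions are the same with a peak of 1 or both controls added. Regions made of control peaks alone are yw-only, and the remainder held a peak of 1 Osa-GFP library, with or without a control peak. The fold of a peak is the value of the authors' peak caller, fragments over background at the summit, and describes a peak within its own list. On the 6 arms Osa-GFP replicate 1 had 5820 peaks, Osa-GFP replicate 2 had 4987, yw replicate 1 had 774 and yw replicate 2 had 4535. The background recovered from the folds was 0.472, 0.46, 0.12 and 0.481 fragments per position in the same order, so yw replicate 1 was about 4 times shallower than the rest. Discs were processed whole, so peaks from muscle precursors and from the epithelium, or fewer cells and less signal per cell, cannot be told apart.

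Of the Osa-GFP-specific regions in these windows, 16 of 20 were in the windows of kirre, mbc and if, genes of fusion and adhesion. These windows make up 505 of 854 kb (59.2%), and 4 of the 16 lie in rst, N or goe, within the kirre span or beside kirre and if. The identity factors twi, zfh1, Him and Mef2 had 2 together, all at twi, and the FGF genes htl and stumps had 0. In all, 97 regions fell in the 10 windows, 20 of them Osa-GFP-specific, 12 shared, 24 yw-only and 41 of 1 Osa-GFP library. Of the 20 specific regions, 10 were in the kirre window, 5 in the if window, 2 each in those of how and twi and 1 in that of mbc. The windows of htl, stumps, Him, zfh1 and Mef2 held none. The spread of regions over genes or over these groups was not tested, and how is in none of the groups. The windows differ in length from 21.3 kb at Him to 414 kb at kirre. In the larger lists described below, a specific region was found at 44.4% of fusion genes and 33.3% of integrin and laminin genes. It was found at 33.3% of identity genes and 50% of FGF and Ras genes. The median windows of these lists were 26.1, 28.8, 25.3 and 41.9 kb in the same order. Among all protein-coding genes the share was 15.9%, from 12.3% for windows under 25 kb to 54.1% over 100 kb. Because window lengths differ, the shares of the lists cannot be ranked against each other.

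**Figure D1:**
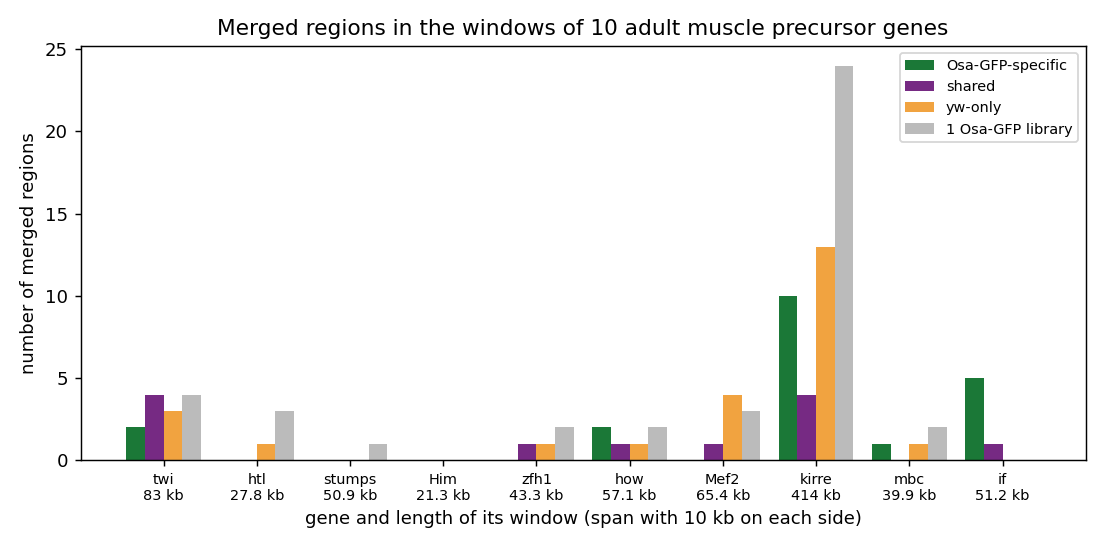
Number of merged regions (vertical axis) of each kind in the window of each of the 10 genes, with the window length under the name. kirre holds 10 Osa-GFP-specific regions and if 5, and Him has no region of any kind.

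The count of genes with a specific region was 5 of 10. Among all 13922 protein-coding genes, 15.9% had one by the same rule, but windows of the members are long, with a median of 51.1 kb against 22.2 kb. Among genes with windows of 40 to 100 kb, 40.8% had one, against 3 of the 6 members in that range (if, how and twi, but not stumps, zfh1 or Mef2). In the range of 25 to 40 kb 20.4% had one, and mbc did while htl did not. Over 100 kb 54.1% had one, as did kirre, and under 25 kb 12.3% had one, while Him had none. Read against genes of like window length, the count of 5 is near the background and is no result about muscle precursor genes as a group.

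Regions with control peaks were found at more of the members. Of the 10 genes, 6 had a shared region, against 17.7% of all genes, and 5 of the 6 with windows of 40 to 100 kb had one, against 38.1%. At zfh1 that region lay in the neighbouring gene wts, and at twi none of the 4 lay in twi alone. Yw-only regions were found at 7 of the 10 genes, against 43.5% of all genes, and at 4 of the 6 in the range of 40 to 100 kb, against 64.2%.

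**Figure D2:**
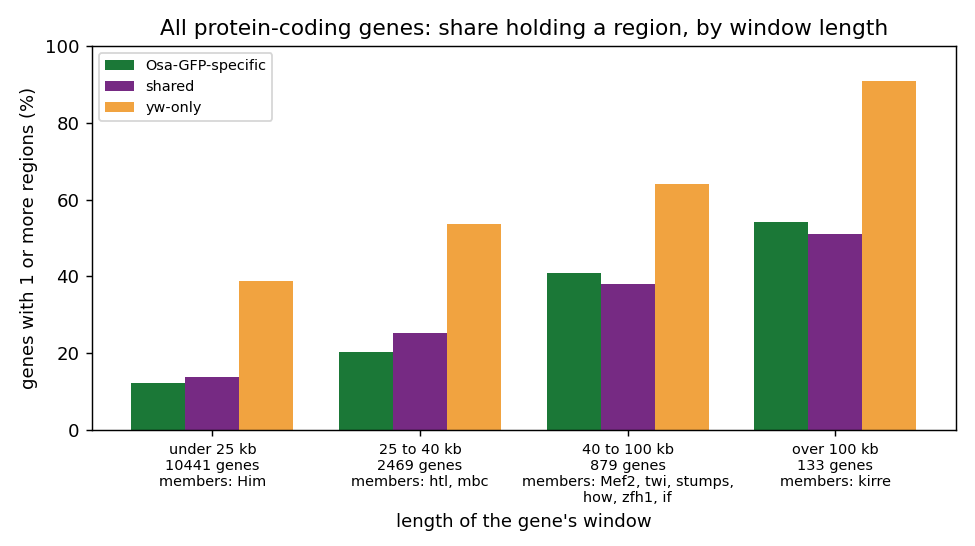
Percent of protein-coding genes (vertical axis) whose window holds at least 1 Osa-GFP-specific, shared or yw-only region, by window length, with the members named under each class. The share with a specific region rises from 12.3% under 25 kb to 54.1% over 100 kb.

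The density of specific regions was 2.34 per 100 kb over the member windows and 2.27 without kirre, against 1.34 over the windows of all protein-coding genes. Density differed more among members than this. It was 9.76 per 100 kb at if, 3.5 at how, 2.51 at mbc and 2.41 at both twi and kirre, and 0 at the other 5. For shared regions the density was 1.41 per 100 kb against 1.21 for all genes, and for yw-only regions 2.81 against 2.03. Regions of 1 Osa-GFP library had 4.8 against 2.76. The windows were thus denser than those of all genes in each kind of region, those of control peaks alone included, with no test made. Density was not compared with genes of like window length, so this is no result about muscle precursor genes as a group.

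As a share of each list, the member windows took 1.05% (61 peaks) and 1% (50 peaks) for Osa-GFP and 0.517% (4 peaks) and 0.882% (40 peaks) for yw, replicate 1 first. Both Osa-GFP values were above both yw values. The difference of 0.326 percentage points (1.03% ± 0.0322 against 0.699% ± 0.258, SD, n = 2 each) had a two-sided exact permutation p of 0.33. That is the smallest p that 2 libraries against 2 can give, so no difference can be established.

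Kirre, also known as Dumbfounded, is the attractant on founder myoblasts to which fusing cells attach. Its gene (CG3653) spans 394149 bp on X at 2740384 to 3134532. The Osa-GFP libraries had 31 and 24 peaks in its window, in the same order of replicates as all pairs of values here, and the yw libraries 3 and 20. Windows with 10 or more specific regions were rare, at 0.0359% of all genes and 2.26% of genes with windows over 100 kb. That class has no upper bound and the kirre window is 414 kb, so 2.26% is not a share among genes of like length. Per 100 kb, kirre had 2.41 specific regions, against 2.34 over all member windows. Of the 10, 7 lay inside the span and in no other protein-coding gene. The count of 10 fell to 6 when peaks within 500 bp of each other were merged. At a −log10 q of 10 or more it was also 6. Those 6 include the regions at 3024115 to 3025341 and 3139154 to 3139668. With all peaks kept these are shared, and the cut removed their control peaks.

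The specific regions at kirre were bunched. All 9 inside the span lay between 2963418 and 3060209, a stretch of 96.8 kb or 24.6% of the span. That stretch also held 11 regions of 1 Osa-GFP library, 1 shared region and 1 yw-only region. The rest of the span held 11 yw-only regions, 11 regions of 1 Osa-GFP library and no shared region. It has no specific region by definition, since the stretch runs from the first to the last of them. Of the 16 regions with a yw peak inside the span, 3 lay in the stretch and 13 (81.2%) in the rest, which is 75.4% of the span. The stretch was drawn from regions that hold no yw peak, so these shares decide nothing about how control peaks are spread. The bunching was not tested. The 3 were the shared region, the yw-only region and a region of Osa-GFP replicate 1 and yw replicate 2 at 3039456 to 3039789.

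The strongest specific region at kirre was on X at 2964612 to 2965326, where the Osa-GFP peaks had folds of 19 and 15.1 and summits of 27 and 21 fragments. It ranked at 348 and 381 within those lists. Beside it, a region at 2963418 to 2964128 had folds of 10.9 and 9.59. Both lie also in the span of rst (2950399 to 2973834), which encodes Roughest, the paralog of Kirre with a partly redundant part in fusion. The table puts the whole rst span inside that of kirre, so these 2 regions cannot be given to either gene.

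Next came the region on X at 3040744 to 3042291, the widest specific region of the 20 at 1548 bp. Its folds were 13.6 in Osa-GFP replicate 1 and 9.59 for the highest of its 3 peaks in replicate 2, and a yw replicate 2 peak of fold 7.43 lay 954 bp away. A triplet lay within a short stretch, at 2990499 to 2990857 (folds 10.9 and 6.85), 2991040 to 2991412 (10.9 and 9.59) and 2993238 to 2993766 (8.15 and 5.48). No yw peak lay within 10 kb of any of the 3, the smallest gap being 10346 bp. The remaining 3 inside the span had folds from 4.11 to 8.9, and 1 of them, at 3059892 to 3060209, had a yw replicate 2 peak of fold 3.38 only 149 bp away.

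The upper end of kirre lies 337 bp from N, which encodes the Notch receptor, so the flank on that side is N sequence. It held the 10th specific region of the window, at 3140745 to 3141031 (folds 4.76 and 5.48), and 3 of its 4 shared regions. At the strongest of these, 3139810 to 3140475, folds were 19.7 and 15.7 in the Osa-GFP replicates and 10.8 in yw replicate 2. The only shared region inside kirre, at 3024115 to 3025341, had folds of 12.2, 9.59 and 4.73 in the same order. The highest fold of any peak in the window belonged to a yw-only region inside kirre at 2769199 to 2769500, with 22.3 in yw replicate 2 and no peak in the other 3 libraries.

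**Figure D3:**
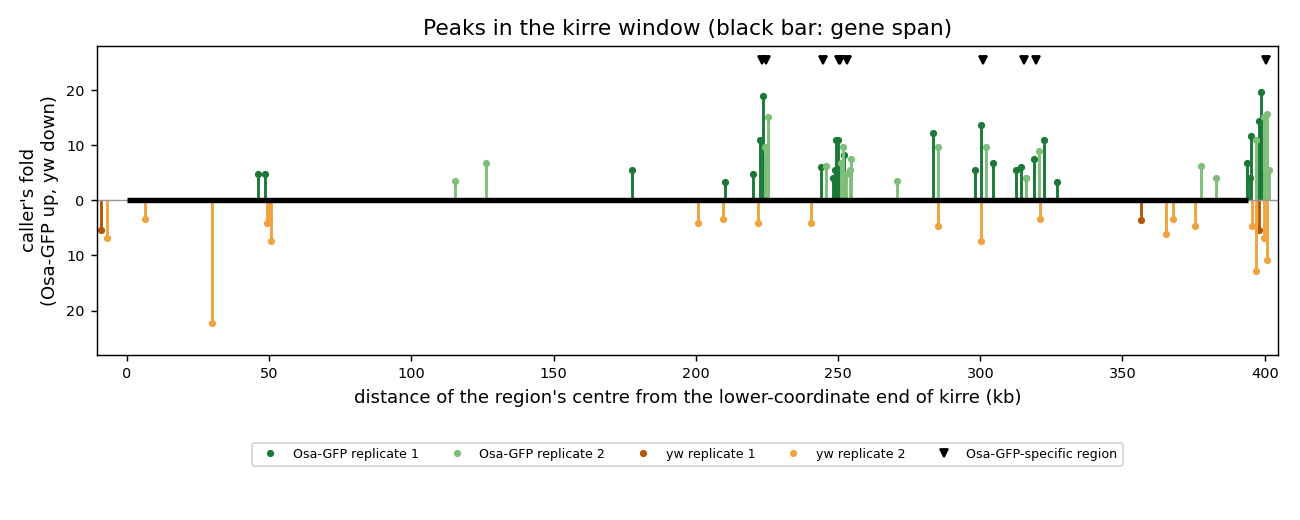
Caller's fold of the highest peak of each library in each region (vertical axis, Osa-GFP upward and yw downward) against the distance of the region's centre from the lower-coordinate end of kirre in kb, with replicates drawn side by side and triangles over specific regions. All 9 specific regions inside the gene sit in a stretch of 96.8 kb, and the tall yw peak near the lower end is the yw-only region of fold 22.3.

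Myoblast city is the Rac exchange factor through which Kirre reaches the actin cytoskeleton. Its gene mbc (CG10379, 3R at 23781765 to 23801634) had 1 specific region, at 23788681 to 23789081 inside the gene, with low folds of 5.44 and 4.79 on summits of 7 and 6 fragments. The 2 regions near its lower end, at 23782363 to 23782723 and 23782865 to 23783035, held peaks of Osa-GFP replicate 2 alone (folds 5.48 and 4.11). A yw-only region of fold 5.4 straddled that end, which adjoins Nup98-96.

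Inflated is the alpha PS2 integrin subunit, found in muscle at its attachment sites and also in wing epithelium, where it is known from the ventral surface. The Osa-GFP libraries had 8 and 6 peaks in the window of if (CG9623, X at 16752189 to 16783434), and the yw libraries 0 and 1. Its window held no region of 1 Osa-GFP library and no yw-only region, so each Osa-GFP region in it was found in both libraries. Windows with 5 or more specific regions made up 0.517% of all genes and 3.53% of those of 40 to 100 kb.

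The highest Osa-GFP folds at if were at a shared region, X at 16761058 to 16762359, which had 16.3 and 14.4. In yw replicate 2 its peak had a fold of 4.73 on 6 fragments, against 23 and 20 fragments in the Osa-GFP libraries. The strongest specific region followed at 16764962 to 16765652, with folds of 11.6 and 14.4. The other 3 inside the gene, at 16767557 to 16768119, 16774279 to 16774619 and 16780246 to 16780576, had folds from 4.11 to 7.47. The fifth was outside, centred 1068 bp below the lower end at 16750627 to 16751616 in the neighbouring gene goe, with folds of 8.15 and 8.9. All 5 were at least 3740 bp from any yw peak.

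How (Held out wings) is an RNA-binding protein that controls splicing and mRNA stability in muscle and tendon. Its gene (CG10293, 3R at 22042191 to 22079321) had 3 and 5 Osa-GFP peaks and 0 and 2 yw peaks. Near its lower end, a specific region at 22044609 to 22044843 (folds 9.51 and 8.9) lay 372 bp from a yw peak within a shared region at 22043974 to 22044348. At that shared region the Osa-GFP folds were 11.6 and 6.16, and yw replicate 2 had 5.4. The second specific region, at 22049409 to 22049697, was weak in both libraries (4.08 and 4.79). Of the other 3 regions, all inside the gene, 1 was yw-only (22042470 to 22042679, fold 4.05) and 2 held a peak of Osa-GFP replicate 2, with folds of 4.11 and 3.42.

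Twist is the basic helix-loop-helix factor that marks adult muscle precursors. In the table twi (CG2956, 2R at 22985374 to 23048325) has a span of 62952 bp that also holds the genes CG9896 and CG42741, so its regions are open to more than 1 reading. The window had 10 and 7 Osa-GFP peaks and 1 and 7 yw peaks. It was the window with most shared regions, 4, level with kirre.

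The strongest regions at twi were shared ones, and all 4 shared regions lay in CG42741 or CG9896 as well as in the span of twi. On 2R at 23033198 to 23034426, the Osa-GFP folds of 18.3 and 21.2 stood beside 6.75 in yw replicate 2, on 26, 30 and 9 summit fragments. At 23031091 to 23031874 they were 17.7, 11 and 4.05. The order turned at 23018221 to 23019263, a region of all 4 libraries, where Osa-GFP peaks reached 7.47 and 5.48 and yw peaks 3.57 and 8.78. Of the 2 specific regions, 23022860 to 23023331 had folds of 7.47 and 7.53 and lay inside both twi and CG42741. The other, 23055169 to 23055496, was in the flank, in Fatp2, with folds of 5.44 and 4.79.

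Zfh1 is the zinc finger and homeodomain repressor that holds precursors back from differentiation. Within zfh1 (CG1322, 3R at 30765926 to 30789202) there were only weak regions, 2 of 1 Osa-GFP library each (folds 4.76 and 4.79, at different places) and 1 yw-only region of 3.38. The strong peaks of its window (22.4 and 20.5 for Osa-GFP, 15.5 for yw replicate 2) formed a shared region at 30794690 to 30795183 in wts, the Hippo pathway kinase gene next to it. Zfh1 itself thus had no region that both Osa-GFP libraries held.

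Mef2, the MADS box factor of muscle differentiation (CG1429, 2R at 9913496 to 9958858), had few peaks of any library. The Osa-GFP libraries had 2 and 3 peaks in its window, the yw libraries 0 and 5. The only region of both Osa-GFP libraries was shared, at 9949432 to 9949920, with folds of 4.76 and 6.85 in Osa-GFP and 6.75 in yw replicate 2. The highest peak was yw-only, with a fold of 7.43 at 9959801 to 9960043 in Pal1. All 4 of its yw-only regions came from yw replicate 2.

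Him, an inhibitor of Mef2 activity (CG15064, X at 18209427 to 18210741), had no peak of any library within 10 kb. That was so for 32.0% of all genes and for 36.8% of genes with windows under 25 kb. A list of called peaks gives no level under its threshold, so this does not show that Osa is absent there. The smallest summits called held 4 fragments in the Osa-GFP lists and in yw replicate 2, and 3 in yw replicate 1.

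The FGF receptor gene htl (CG7223, 3R at 18045216 to 18052984) had 3 peaks in Osa-GFP replicate 1, with folds of 6.8, 6.12 and 4.08, and none in replicate 2. The strongest was centred 4041 bp below the gene and the second inside it at 18049946 to 18050453. Its adaptor gene stumps (CG31317, 3R at 14577217 to 14608079) had 1 region, at 14601296 to 14601724, with folds of 4.08 in Osa-GFP replicate 1 and 4.73 in yw replicate 2. Neither gene had a peak repeated between the Osa-GFP libraries.

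**Figure D4:**
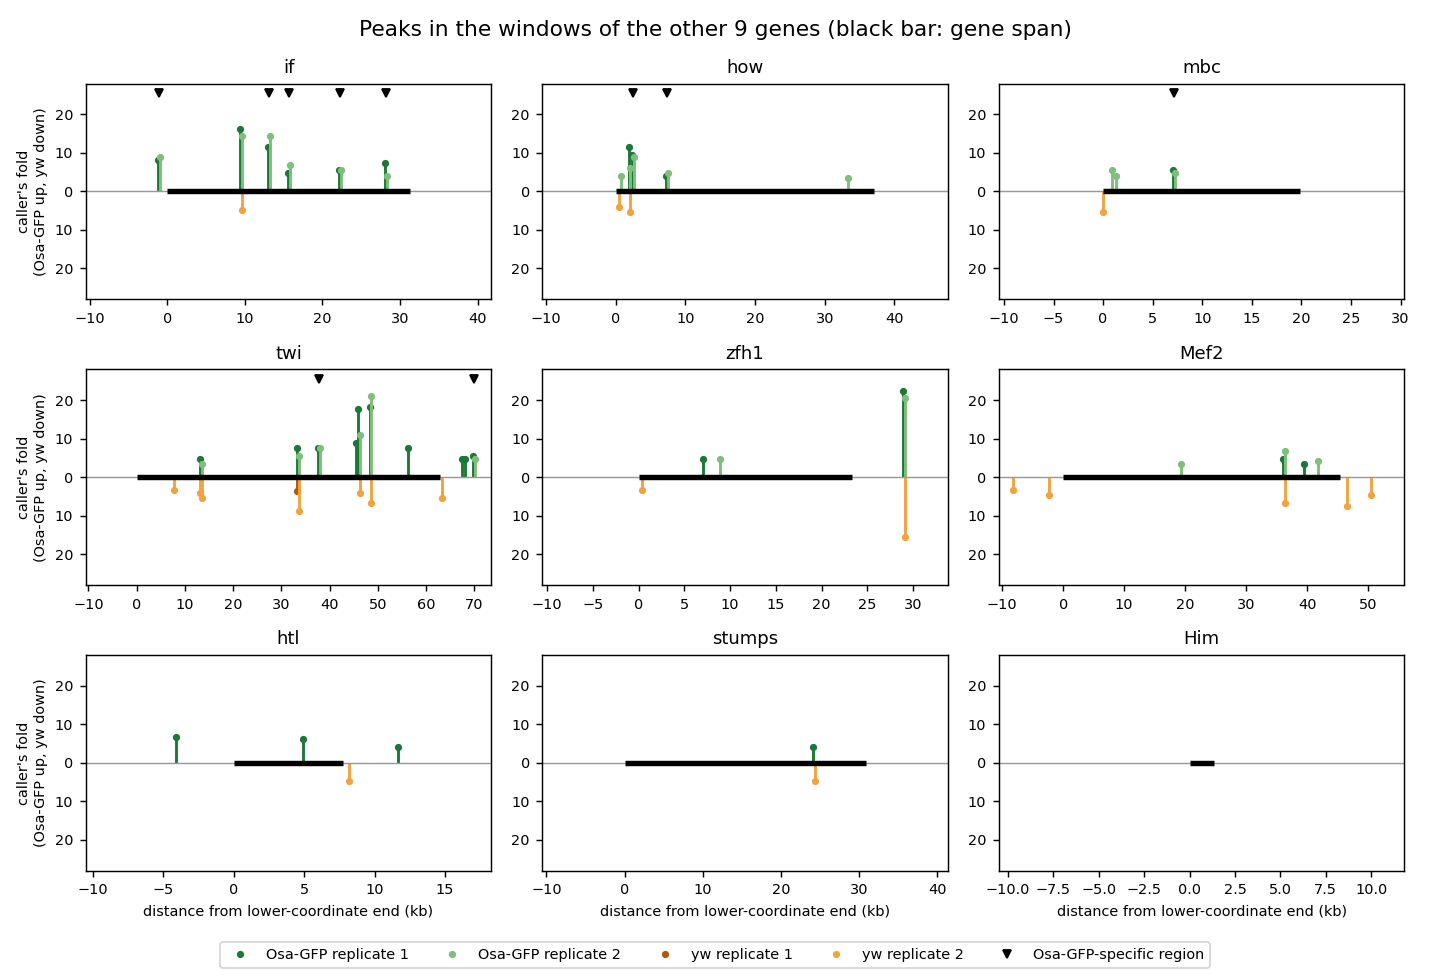
Caller's fold of the highest peak of each library in each region (vertical axes, Osa-GFP upward and yw downward) against distance from the lower-coordinate end of the gene in kb, for the 9 genes other than kirre, with replicates side by side, black bars for gene spans and triangles over specific regions. The if window has Osa-GFP peaks of both libraries at every region and 1 yw peak, the tall zfh1 peaks lie outside the gene, and Him has no peak.

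Specific regions at these genes varied in strength. Their folds ran from 4.08 to 19 with a median of 7.47 in Osa-GFP replicate 1 and from 4.11 to 15.1 with a median of 6.85 in replicate 2. Over all single peaks of those lists, found in both libraries or not, the medians were 6.12 and 6.16, so the sets are unlike. In 7 of the 20, −log10 q was 10 or more in both Osa-GFP lists. Their median width was 387 bp, against 402 bp for all specific regions, while shared regions of these windows had a median of 590 bp and yw-only ones of 180 bp.

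Of the 20 specific regions, 17 were inside the span of their member, 14 of them in no other protein-coding gene, and none was centred within 500 bp of an end of that span. All 5 regions that were centred so near an end were yw-only, at twi, htl, zfh1, how and mbc. Among all genes, 1.36% had a specific and 8.96% a yw-only region so placed. The lack of a specific one near the ends of 10 genes is thus what all genes show. Yw-only regions so placed were at 5 of the 10 genes, above that 8.96%, with no test made. The table gives no strand, so the end with the start site is not known here.

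The gap from a specific region to the nearest yw peak had a median of 4940 bp and ran from 149 to 19024 bp, with 2 of the 20 within 500 bp and 5 within 2000 bp. Depth bears on the absence of yw peaks. Scaled to the depth of yw replicate 1, the summits of 13 of the 20 specific regions would fall under 3 fragments, the smallest summit in that list. For those 13, the lack of a peak in yw replicate 1 is not informative at this depth, which leaves yw replicate 2 as control.

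Other genes of the same processes were taken from lists. Of 14 genes of FGF and Ras signalling, 7 had a specific region in their window, led by Raf, the kinase below Ras, with 11. It was followed by sty, an inhibitor of the pathway, with 3, the Heartless ligand gene ths with 3 and the Ras activator gene Sos with 2. At ths the highest folds of a specific region were 8.83 and 6.16. Its window is 77.6 kb long, against 27.8 kb at htl, and pyr, the other Heartless ligand gene, had 0 in 34.1 kb. The median window of this list is 41.9 kb, and 7 of 14 is 50%. Among all genes, 40.8% with windows of 40 to 100 kb had a specific region. For 25 to 40 kb it was 20.4% and under 25 kb 12.3%. The windows of this list run from 22.5 kb at Ras85D to 77.6 kb at ths. The share of a single class is therefore no background for the whole list, and no test was made.

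Of 18 fusion genes, 8 had one. The adaptor gene rols, which links Kirre to the cytoskeleton, had 5 (highest folds 21.1 and 17.1) and siz, an Arf activator gene, had 3 (13.6 and 19.9). The adaptor gene dock and the Kirre-binding partner gene hbs had 2 each. Those of rst, also 2, are the same regions as in the kirre window. The 8 are 44.4% of the list, against 20.4% of genes with windows of 25 to 40 kb, in which the median of this list (26.1 kb) falls, with no test made. Its windows run from 21.8 kb at Rac1 to 77.6 kb at sns, so that class is no background for the whole list.

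Of 18 genes of integrin adhesion and laminins, 6 (33.3%) had one, against the same 20.4% for a median window of 28.8 kb: scb, another alpha integrin gene, had 3 (highest folds 12.2 and 11.6), mew, the alpha PS1 gene, 2, and ItgaPS4 and the paxillin gene Pax 1 each among others. The genes scb and ItgaPS4 are neighbours with overlapping windows. Of 18 factors and markers of myoblast identity, 6 (33.3%) had one, for a median window of 25.3 kb in the same class. There were 6 at tup, 3 at vg (20.4 and 17.8) and 1 each at Ama and Kr. The genes vg and tup are also known from the disc epithelium. Of 22 genes of the contractile apparatus, 3 had one, or 13.6%: Mlp84B with 2, and Tm1 and Zasp66 with 1 each. The median window of that list is 24.9 kb, at the edge of the class under 25 kb, where 12.3% of genes had one. Some of its windows are far longer, such as Zasp52 (74.4 kb) and sls (95.9 kb), in the class with 40.8%. Windows in the lists of this paragraph run from 21.6 kb at bap to 95.9 kb at sls. The share of a single class is thus no background for a whole list, and no test was made.

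Of the epithelial wing selectors vg, sd, ap and Bx, 3 had a specific region and all 4 a shared one. Their median window is 42.3 kb, where 40.8% of genes had a specific and 38.1% a shared region. The window of vg, at 35.2 kb, is in the class below, and vg is counted in the identity list too. Of the POU genes of the pouch, nub had 6 specific and no shared or yw-only regions in a window of 60.5 kb, and pdm2 had none. By comparison if, in 51.2 kb, had 5 specific and 1 shared region. No test of these differences was made, since genes are not replicates.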

How the data were processed

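The deposited files are 1 narrowPeak list per library on dm6. The submitters' processing notes list MACS2 2.1.2, Bowtie2 2.3.4.1, Picard 2.2.4, SAMtools 1.10 and deepTools 2.4.1. No source used here gives the command line or the calling threshold. The deposited fold is a ratio of summit fragments over background. The deposited p and q are −log10 values. The deposited summit column is a position.

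Within each list the folds were whole multiples of 1 step (100% of peaks, tolerance 0.01), as (fragments + 1)/(background + 1) gives, from which summit fragments and background, the measure of depth, were recovered. Merging and counting used Python 3.11.15, numpy 2.4.6 and pandas 2.3.3 and were tested on simulated data. Gene spans came from RefSeq, without strand. No sequence was used here, so the planned motif search was not run. Members and lists were chosen with earlier results of these data known. In each list, the 4 genes with most specific regions are named. Regions and genes are not replicates and were not tested. Alternatives were other flanks, q thresholds, equal list lengths, merging within 500 bp, summit windows, a stricter control rule and leaving out each library.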

Additional observations from a re-analysis of the deposited data

How the results depend on the processing

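Of specific regions there were 12 in place of 20 when each list was cut at a −log10 q of 10. With equal lists of 774 peaks there were 3, at 3 genes (twi, kirre and if) in place of 5. Such cuts also removed control peaks, so some shared regions became specific. Of the 20, 7 had a −log10 q of 10 or more in both Osa-GFP lists. With equal lists, the region at twi (23033198 to 23034426) and that at if (16761058 to 16762359) had been shared. Leaving out a library gave 20 to 44 specific regions at 5 to 8 genes. It was 39 without Osa-GFP replicate 1 and 44 without Osa-GFP replicate 2, where a single library then had to hold the peak, and 30 without yw replicate 2. The 12 shared regions became 6 and 3 at −log10 q of 5 and 10, 3 with equal lists, 2 under the rule that asks for peaks of both controls and 2 to 17 without a library, the 2 being without yw replicate 2. The 24 yw-only regions became 5 and 2 at those thresholds, 5 with equal lists and 2 to 30 without a library, the 2 again without yw replicate 2. Counting only regions inside the span and in no other gene, a setting chosen after seeing the data, left 14 specific, 4 shared and 11 yw-only regions, and no specific one at twi. The gene mbc lost its region at −log10 q of 5 or more, and htl gained 2 with flanks of 25 kb. The if window held 3 or more specific regions in every setting but equal lists (1). These counts include the shared region at 16761058 to 16762359 at both q thresholds and with equal lists, where its control peak was cut. Him and stumps had none in all 14. The difference in peak share was positive in all 10 alternatives for which it was computed, from 0.143 points (without yw replicate 1) to 0.678. It was not computed for equal lists, merging within 500 bp, summit windows or the stricter control rule. With the replicate block it was 0.326 points with an exact permutation p of 0.50, the smallest that 2 pairs allow. The cause of these changes was not tested.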
